A study of Drosophila melanogaster with 2 samples.

Results

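Mitochondrial ribosomal protein genes were taken as the genes whose symbol in the deposited files starts with mRpL or mRpS. The rule found 73 genes of the 17301 in the files, 47 named for the large and 26 for the small subunit of the mitochondrial ribosome, with 98 annotated transcripts. The study compared pooled Drosophila melanogaster embryos collected over 0 to 16 h and reared at 25 °C, with 1 poly(A)-selected RNA library per group. In both crosses the driver line carried y1 w*, the GAL4 insertion P{en2.4-GAL4}e22c and the reporter P{tGPH}4 over the balancer TM3, Ser1. For the group labelled knockdown it was mated to y1 v1 flies with P{TRiP.JF02125}attP2, a construct that makes RNA interference against the LIM-homeodomain gene Lim3. For the control it was mated to y1 v1 flies with the landing-site transgene P{y+t7.7=CaryP}attP2. Driver, reporter and the attP2 site were therefore common to both groups. The labels list the embryos of both groups with the reporter over a wild-type chromosome and do not mention TM3 there. They place the driver's action in early development without naming cells, and each group is 1 pool.

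Mitochondria translate the messages of their own small genome on a ribosome that descends from that of bacteria. Its RNAs come from mitochondrial DNA, whereas its proteins are encoded in the nucleus, made in the cytosol and imported. Some of these proteins have bacterial relatives and others were added in mitochondria. The products of the ribosome are core subunits of the respiratory chain and of ATP synthase, and mutants of such genes in flies grow slowly or die early.

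Levels are in FPKM, a fragment number scaled for transcript length and library size, and were summed over the transcripts of each gene. Differences are given as log2((knockdown + 1)/(control + 1)), and fold values as plain ratios of FPKM. Where a pair of FPKM values is given, the library labelled knockdown comes first. With 1 library per group nothing could be tested, and no difference below has a replicate check. Lim3 itself stood at 18.5 FPKM in the library labelled knockdown against 5.81 FPKM in the control, and was thus higher where the label names a knockdown. The reason was not tested, so the wording of a library labelled knockdown is kept throughout. Depth, estimated from the value of a single fragment among transcripts of 1000 to 3000 nt, was about 32434000 fragments for the library labelled knockdown against 22233100 for the control. Across all 10576 tested genes, those at 1 FPKM or more in at least 1 library, the median log2 difference was -0.045. The libraries are RNA of whole embryos, in which fewer cells of a type and less RNA per cell cannot be told apart.

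All 73 genes were expressed in both libraries, at levels that lay close together. In the library labelled knockdown the levels ran from 37.1 to 328 FPKM, and in the control from 41.2 to 358 FPKM. The median over genes was 101 and 128 FPKM, against 18.3 and 19.3 FPKM over all tested genes. By their mean over both libraries 66 genes lay within 2-fold of the members' median of 117 FPKM, 6 lay above that range and 1 below it. Of the 73 genes, 72 stood above the 80th percentile of tested genes, and the exception was mRpS31 at percentile 70.6.

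The highest levels were found for 2 small proteins of the large subunit. mRpL33, of a small zinc-ribbon family of bacterial origin, stood at 328 FPKM in the library labelled knockdown against 358 FPKM in the control. mRpL34, the smallest transcript of the set with 327 nt, was at 293 and 352 FPKM. mRpL42, a protein without a bacterial relative, followed at 222 and 292 FPKM, and mRpS16, a bacterial-type protein that binds small-subunit RNA, at 201 and 277 FPKM. These top genes were higher in the control library in each case. mRpS7, of the small subunit's head, was at 210.0 and 267 FPKM, mRpS21 at 209 and 262 FPKM and mRpS14 at 190 and 258 FPKM. mRpL12, whose bacterial relative forms the flexible stalk that recruits translation factors, was at 196 and 230 FPKM.

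The lowest levels belonged to genes whose longest transcripts, of 909 to 1440 nt, exceeded the members' median length of 783 nt. mRpS31 stood at 37.1 FPKM in the library labelled knockdown against 41.2 FPKM in the control. mRpS29, known in mammals as the GTP-binding protein DAP3, was at 55.0 and 63.2 FPKM, and mRpL38, of the central protuberance, at 58.4 and 62.6 FPKM. mRpL46, of the same region, was at 59.4 and 64.7 FPKM and mRpS35 at 65.3 and 70.8 FPKM. Across the 73 genes the mean level and the longest transcript length had a Spearman correlation of -0.54 (Pearson -0.52), a description over genes that share libraries and length scaling. The order of the genes was nearly the same in both libraries, with a Pearson correlation of 0.978 between log2 FPKM values across genes, which are not independent replicates.

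**Figure D1:**
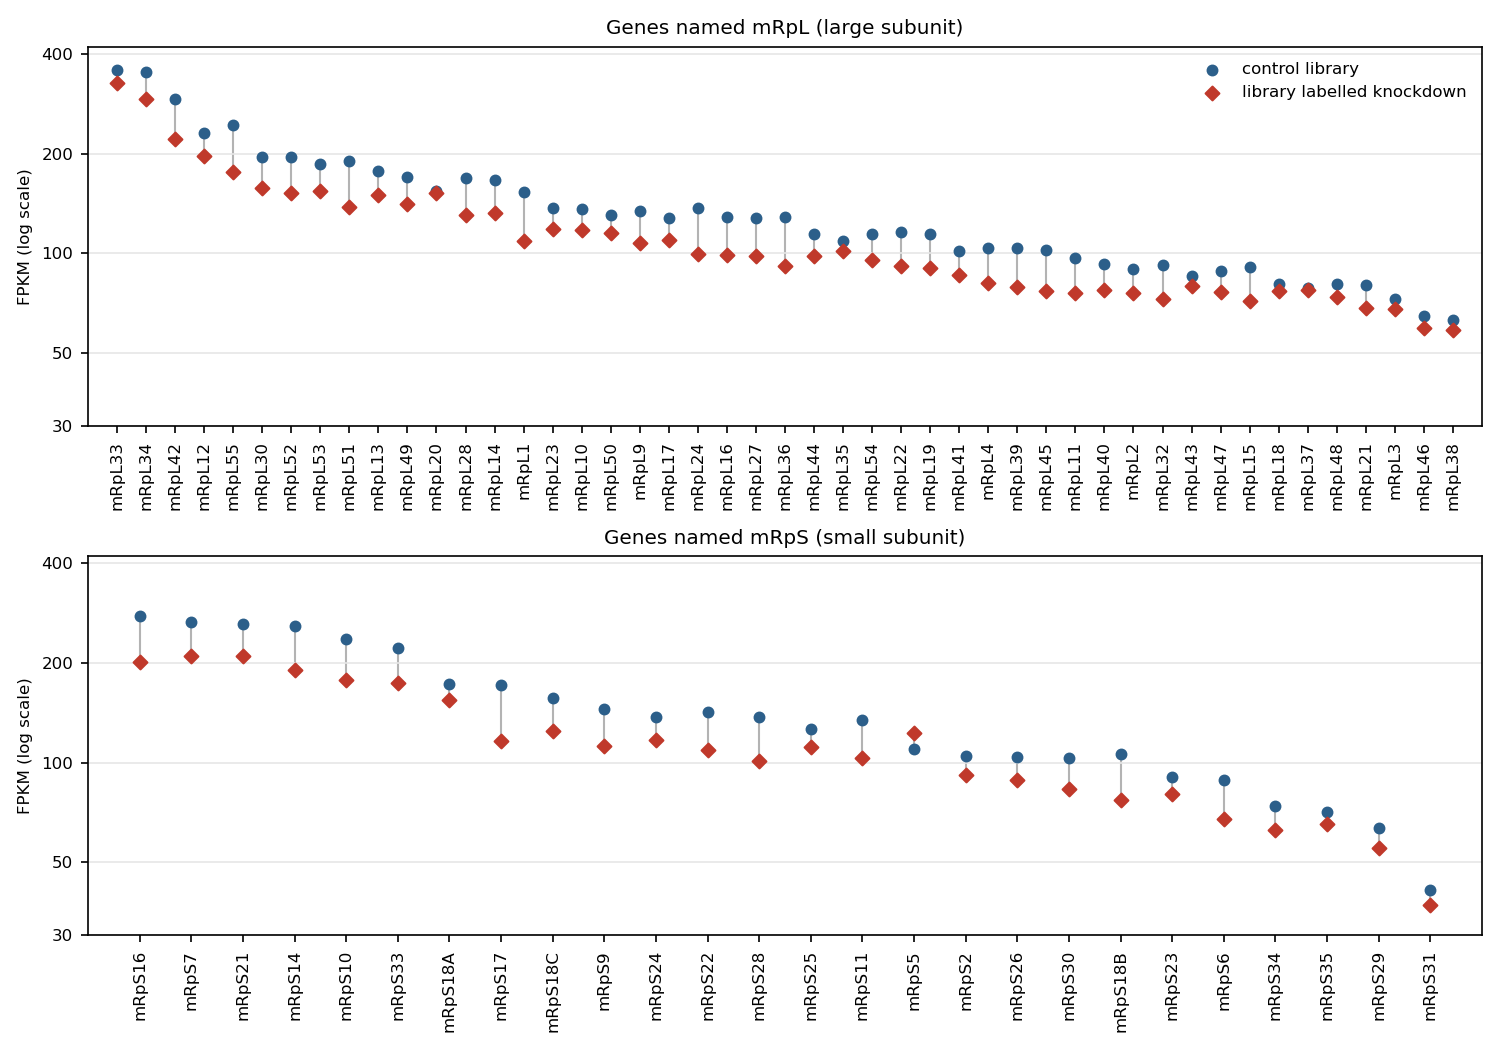
FPKM (log scale) of each mRpL gene (upper panel) and mRpS gene (lower panel) in the control library (circles) and the library labelled knockdown (diamonds), ordered by mean level, with 1 value per library. As deposited, 72 of 73 genes lie lower in the library labelled knockdown, with mRpS5 the exception. After rescaling to an equal FPKM sum 36 lie lower, after rescaling to a median ratio of 1 69, and with the length trend removed 61.

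Nearly every gene of the set was slightly lower in the library labelled knockdown on the deposited scale. Of the 73 genes 72 lay below 0, where 56.5% of all tested genes did, and 1 lay above 0, where 43.5% did. The median log2 difference of the set was -0.28 (quartiles -0.38 and -0.20) against -0.045 for all tested genes. None was 2-fold lower or 2-fold higher, as were 1.37% and 1.02% of tested genes. A smaller size rule, a value of 0.8 of the control's or less with 1 FPKM added to both, was met by 34 of the 73 and by 15.9% of tested genes. The same rule in the higher direction was met by none of the 73 and by 8.65% of tested genes. The rule of 0.8 is used for the lists below, on the deposited scale. The size, and under 1 of the rescalings the direction, moved with the scale. When both libraries were rescaled to an equal FPKM sum, which adds 0.28 to the log2 ratio of every gene, the median was 0.0033 and 36 genes lay below 0. When they were rescaled to a median ratio of 1, 69 of 73 lay below 0 and the median was -0.20. Relative to the median of all tested genes the members' median was -0.23 on the deposited scale and at a median ratio of 1. After rescaling to an equal FPKM sum it was -0.21.

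As a share of all FPKM the set was alike in the libraries. Its sum was 8437 FPKM in the library labelled knockdown against 10357 FPKM in the control, a ratio of 0.815. These sums were 0.752% and 0.759% of the totals over all genes. Cytosolic ribosomal protein genes held 45.9% and 51.2% of these totals, and their own sums had a log2 ratio of -0.44. The equal share and the equal-sum rescaling both rest on totals in which that list weighs heavily. The spread among members was wider than counting error. The standard deviation of the 73 log2 differences was 0.13, and the median counting error of 1 gene's log2 ratio, from an estimated 682 to 4993 fragments per gene and library, was 0.047. The intervals given below come from these estimated fragments and cover counting error only.

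The lowest differences were spread over both subunits. mRpS17, whose bacterial relative binds small-subunit RNA early in assembly, stood at 116 FPKM in the library labelled knockdown against 172 FPKM in the control. The level was thus 1.48-fold lower (1.39 to 1.57), with a log2 difference of -0.56. Its gene spans 2R from 20061188 to 20061964 in the coordinates of the files. mRpL36, on 3L from 8117684 to 8118232, stood at 91.4 and 128 FPKM, a 1.40-fold lower level (1.28 to 1.55). mRpL1, which in bacteria forms the mobile arm beside the exit site for tRNA, stood at 109 and 153 FPKM, also 1.40-fold lower (1.34 to 1.46). These 3 are families shared with bacteria. mRpL55 was at 176 and 243 FPKM, mRpL51 at 138 and 190 FPKM and mRpL24, a tunnel exit protein, at 99.7 and 137 FPKM. mRpS16, described above, and mRpS18B, at 77.0 and 106 FPKM, complete the 8 lowest, all with log2 differences from -0.56 to -0.45.

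At the other end, 3 genes had counting intervals that included a ratio of 1. mRpL20, an early assembly protein of the large subunit in bacteria, stood at 152 FPKM in the library labelled knockdown against 154 FPKM in the control (log2 -0.019). mRpL37 was at 77.3 and 78.4 FPKM (-0.021), and mRpL18, which lies in the central protuberance, at 76.6 and 80.9 FPKM (-0.079). mRpL35 (102 and 109 FPKM), mRpL3 (67.8 and 72.6 FPKM), mRpL38 (58.4 and 62.6 FPKM) and mRpL43 (79.3 and 85.4 FPKM) lay between -0.093 and -0.11. On the deposited scale these genes were the ones closest between the libraries, and they lay above 0 after rescaling to an equal sum.

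mRpS5, whose bacterial relative lines the entry of the mRNA channel, was the only member higher in the library labelled knockdown. It stood at 123 FPKM there against 110.2 FPKM in the control, a ratio of 1.12 (counting interval 1.02 to 1.23) and a log2 difference of 0.16. The gene lies on 3L from 24530335 to 24536634 in the files. Its shortest transcript, FBtr0111144 with 479 nt, was at 82.8 and 70.8 FPKM (log2 0.22) and held 67.3% and 64.3% of the gene's FPKM. In the Release 6 annotation FBtr0111144 shares a first exon of 254 nt with FBtr0111146, ends in a 225 nt exon within the intron of the others, and lacks the last exon of 1125 nt that both longer transcripts carry. Those 2 longer transcripts together were at 40.3 and 39.4 FPKM (log2 0.031), so most of the difference of mRpS5 sat in the short form. The division of fragments among transcripts is an estimate of the authors' software.

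The large and small subunit lists were described side by side, with no test of their difference. The 47 mRpL genes had a median log2 difference of -0.27, all below 0, with 20 meeting the rule of 0.8, and a median of 0.014 after rescaling to an equal sum. The 26 mRpS genes had a median of -0.33, with 25 below 0 and 14 meeting that rule, and one of -0.049 after rescaling. The median level over mean FPKM was 110 for mRpL and 119 for mRpS genes.

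The genes were also split into families with a relative among bacterial ribosomal proteins and families without one, which are called mitochondria-specific here. The first were taken as mRpL numbers up to 36 and mRpS numbers up to 21, together with mRpS24 and mRpL47, whose relatives are the bacterial S3 and L29. Of these 44 genes 25 met the rule of 0.8, and the median was -0.33. Of the 29 mitochondria-specific genes 9 met it, with a median of -0.24. The summed levels did not show such a gap, with a log2 ratio of -0.30 for the first and -0.29 for the second. In the small subunit 11 of 15 and 3 of 11 genes met the rule, with medians of -0.37 and -0.23. In the large subunit the counts were 14 of 29 and 6 of 18, with medians of -0.32 and -0.26, but the log2 ratio of the sums ran the other way, at -0.27 and -0.30. The longest transcript had a median of 772.5 nt in the first and 783 nt in the second, and the levels had medians of 120 and 93.9 FPKM. No test of this contrast was made. Genes were assigned by symbol only, so a family with a bacterial relative under another number may stand among the mitochondria-specific ones.

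**Figure D2:**
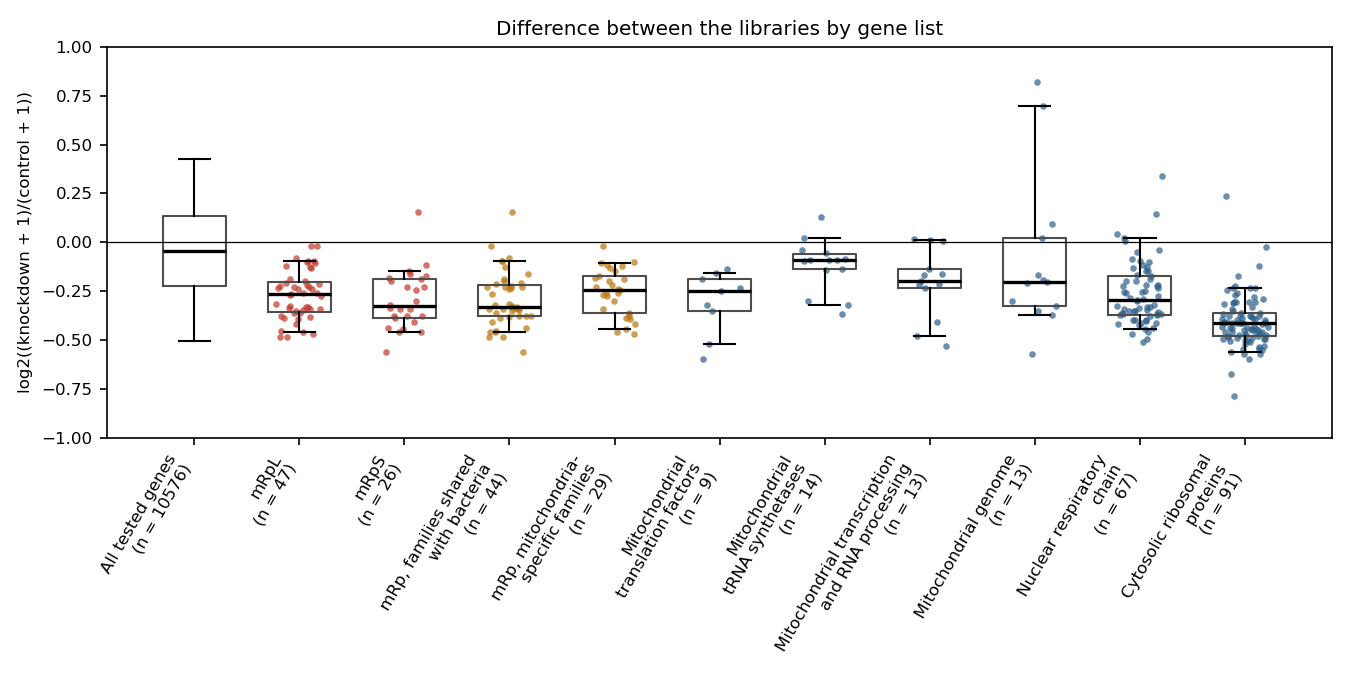
Log2 difference between the libraries for all tested genes (box only) and for each gene list, with 1 point per gene. Boxes give the median and quartiles and whiskers the 5th and 95th percentiles; CG34172 of the nuclear respiratory chain list, at 2.53, lies above the axis. The mRpL and mRpS medians lie at -0.27 and -0.33 as deposited, and at 0.014 and -0.049 after rescaling to an equal FPKM sum.

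By place in the ribosome, the genes listed for the central protuberance of the large subunit had the smallest differences on the deposited scale. These 5 genes, mRpL18, mRpL38, mRpL40, mRpL46 and mRpL48, had a median of -0.12, and none met the rule of 0.8. After rescaling to an equal FPKM sum their differences were not the smallest. They then lay above 0, from 0.018 (mRpL40) to 0.20 (mRpL18), while the stalk genes mRpL10, mRpL11 and mRpL12 lay between -0.068 and 0.079. The values that follow are on the deposited scale. mRpL40 stood at 77.3 FPKM in the library labelled knockdown against 92.8 FPKM in the control (-0.26), and mRpL48 at 73.5 and 80.5 FPKM (-0.13). Of the 5 genes listed for the small subunit's head, by contrast, 4 met the rule, with a median of -0.37. mRpS14 (-0.44), mRpS10, at 178 and 236 FPKM (-0.41), mRpS9, at 112 and 146 FPKM (-0.37), and mRpS7 (-0.34) were the 4, and mRpS29 lay at -0.20. The lists by place were made by hand and are not complete. The head list leaves out mRpS24 (-0.23), mRpS31 (-0.15), mRpS33 (-0.34) and mRpS35 (-0.11), of which only mRpS33 met the rule. The protuberance and head lists also differed in level. The protuberance genes had mean levels of 60.5 to 85.0 FPKM. The head genes mRpS7, mRpS14, mRpS10 and mRpS9 had 238, 224, 207 and 129 FPKM, and mRpS29 had 59.1 FPKM. Across the 73 genes the log2 difference and the mean level had a Spearman correlation of -0.39 (Pearson -0.26). Whether the contrast goes with place or with level was not tested.

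Genes near the peptidyl transferase centre, where peptide bonds form, ranged widely. mRpL27, which in bacteria reaches into that centre, stood at 98.0 FPKM in the library labelled knockdown against 128 FPKM in the control (-0.38). mRpL16 was at 98.9 and 129 FPKM (-0.37) and mRpL4, which lines the upper tunnel in bacteria, at 81.1 and 104 FPKM (-0.35). mRpL2, at 76.0 and 89.6 FPKM (-0.24), and mRpL3 (-0.097) were closer between the libraries. The rule of 0.8 was met by 3 of these 5 genes. It was also met by 3 of the 7 tunnel exit genes, namely mRpL24, mRpL45, the membrane anchor in mammals, at 76.6 and 103 FPKM (-0.42), and mRpL22, at 91.5 and 116 FPKM (-0.34). mRpL17, mRpL44, mRpL47 and mRpL23 lay between -0.22 and -0.21.

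The 3 stalk genes had a median of -0.23. mRpL11, at the stalk base, stood at 75.9 FPKM in the library labelled knockdown against 96.7 FPKM in the control (-0.35), mRpL12 lay at -0.23 and mRpL10, which holds the mRpL12 copies, was at 118 and 135 FPKM (-0.20). Along the mRNA path of the small subunit mRpS11, at 103 and 134 FPKM (-0.38), mRpS21 (-0.32) and mRpS2, at 92.0 and 105 FPKM (-0.19), lay below 0 and mRpS5 above it. The 3 paralogs of the S18 family differed among themselves. mRpS18B was at -0.46 and mRpS18C, at 124 and 157 FPKM, at -0.33, whereas mRpS18A, at 155 and 173 FPKM, was at -0.16. mRpS18A and mRpS30, at 83.3 and 103 FPKM (-0.30), carry small-subunit names although their mammalian relatives sit in the large subunit.

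Transcripts of most members were short, and tested genes under 1500 nt had lower medians than longer ones. The 634 tested genes under 500 nt had a median of -0.12, and the 6 members among them -0.33. The longest transcript had a median of 783 nt in the 73 genes, against 1846 nt in all tested genes. All tested genes of 500 to 750 nt had a median of -0.17, and the 28 members of that length -0.29. From 750 to 1000 nt these medians were -0.13 and -0.27 (17 members), and from 1000 to 1500 nt -0.12 and -0.28 (20 members). Tested genes of 3000 nt or more, a class without members, had a median of 0.038. With the trend over length removed, the members' median was -0.15, 61 of 73 lay below 0 and 5 met the rule of 0.8. Within the set, length and difference had a Spearman correlation of 0.17 (Pearson 0.19) over 73 genes, as a description.

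**Figure D3:**
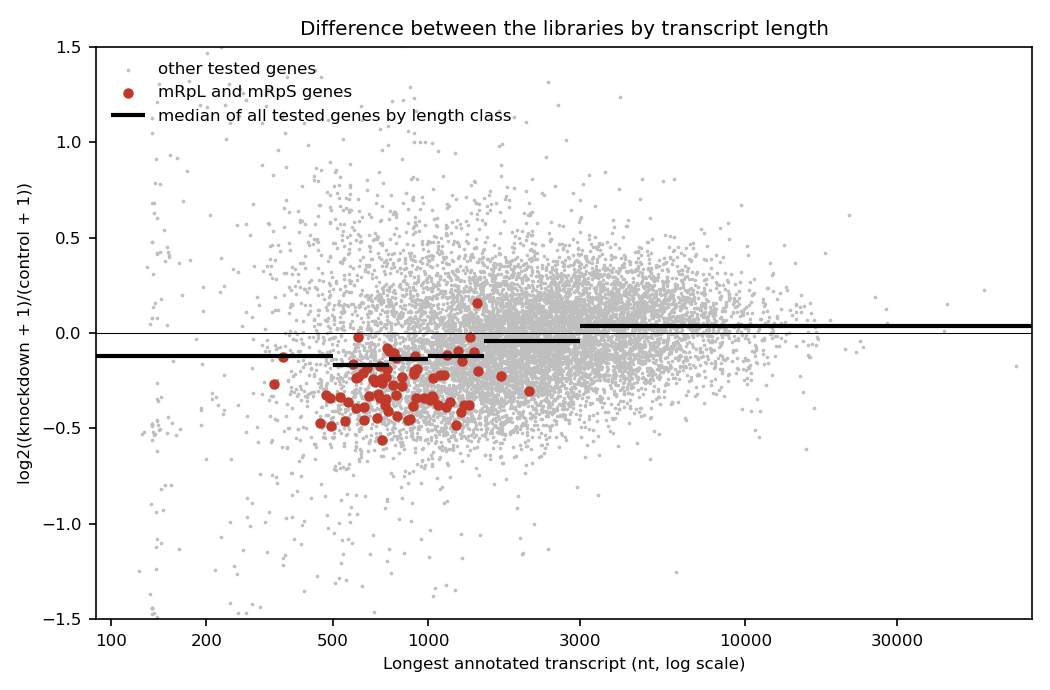
Log2 difference between the libraries against the longest annotated transcript (nt, log scale) for the tested genes, with mRpL and mRpS genes in red and black bars at the median of all tested genes in each length class. The 131 genes beyond the vertical axis are not drawn. Members lie mostly below the bars of their length classes on the deposited scale, and rescaling to an equal FPKM sum moves all points up together.

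Within genes, longer transcripts were relatively higher in the library labelled knockdown. Of the 73 genes 54 had 1 annotated transcript and 19 had more, and 18 had at least 2 transcripts of different length at a mean of 1 FPKM or more. In 16 of these 18 the log2 difference of the longest transcript lay above that of the shortest, which also held for 61.6% of 3950 tested genes with such a pair. In all 18 the longest was the less abundant of the pair, and among tested genes with that property the share was 62%. In 11 of the 18 both transcripts had the same start and exons in the Release 6 annotation and differed only in how far the 3′ end reached, by 32 to 954 nt.

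Among those 11 genes the form with the longer 3′ end lay above the shorter one in 10, and among all 647 tested genes with such a pair in 84.1%, a share close to that of the members. By comparison, where the longest transcript reached further only at its 5′ end the share over all tested genes was 42.9%, and the 1 member of that kind, mRpS14, had the longest form above the shortest. Where the longest form reached no further at either end the share was 49.3% over all tested genes, and the longest lay above the shortest in all 4 such members. Among members the order was thus also seen outside pairs with a longer 3′ end, but on weak values. The longest form was at 1.94 and 1.35 FPKM in mRpS10, 3.02 and 2.16 in mRpS14 and 4.55 and 2.93 in mRpS6. In mRpL23 it was at 6.37 and 6.08 FPKM, and in mRpL14 the log2 differences of the forms lay only 0.011 apart. mRpS5, whose longest form reached further at both ends, had it below the shortest (-0.10 and 0.22). Over all tested genes 75.2% of such pairs had the longest above. Of the 11 shorter forms all lay below 0, with a median of -0.41, as did 544 of the 647 over all tested genes, with a median of -0.33. Of the 11 longer forms 8 lay above 0, with a median of 0.079, as did 462 of the 647, with a median of 0.19. The pattern was looked for after the values had been seen.

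mRpS30 on X shows the pattern at nearly equal levels of both forms. Its 1829 nt transcript FBtr0074094 stood at 43.0 FPKM in the library labelled knockdown against 64.9 FPKM in the control, whereas FBtr0346193, longer by 249 nt at the 3′ end, was at 40.2 and 38.0 FPKM. The longer form thus held 48.3% of the gene's FPKM in the first library and 36.9% in the second. In mRpS21 the longer form rested on 53 nt more and stood at 68.8 and 61.2 FPKM, while the shorter was at 141 and 201 FPKM, so that its share was 32.9% and 23.3%. In mRpL16 the form longer by 207 nt was at 18.6 and 14.1 FPKM and the shorter at 80.3 and 114.5 FPKM. mRpS18B had 19.4 and 18.9 FPKM of the longer and 57.6 and 87.3 FPKM of the shorter form. In each of these 4 genes the shorter form lay below its control value and the longer form above it.

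The other members of this kind were smaller in contrast or in level. mRpL28, with 32 nt between its forms, was at 37.6 and 44.3 FPKM for the longer and 93.0 and 124 FPKM for the shorter transcript. mRpS7 had 18.04 and 17.5 FPKM of the longer and 192 and 249 FPKM of the shorter. mRpL49 was the exception, with its longer form at 8.62 and 13.3 FPKM and its shorter at 132 and 157 FPKM. The longer forms of mRpL48, mRpL21, mRpL17 and mRpL27 were under 6 FPKM in both libraries. Of members whose forms differ elsewhere, mRpL14 had 2 forms of nearly equal level, at 65.6 and 82.3 FPKM and at 66.4 and 83.9 FPKM, with log2 differences of -0.32 and -0.33. In mRpL23 the main forms of 560 and 597 nt differed in level, the first with 64.5 and 73.6 FPKM and the second with 45.9 and 57.0 FPKM.

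**Figure D4:**
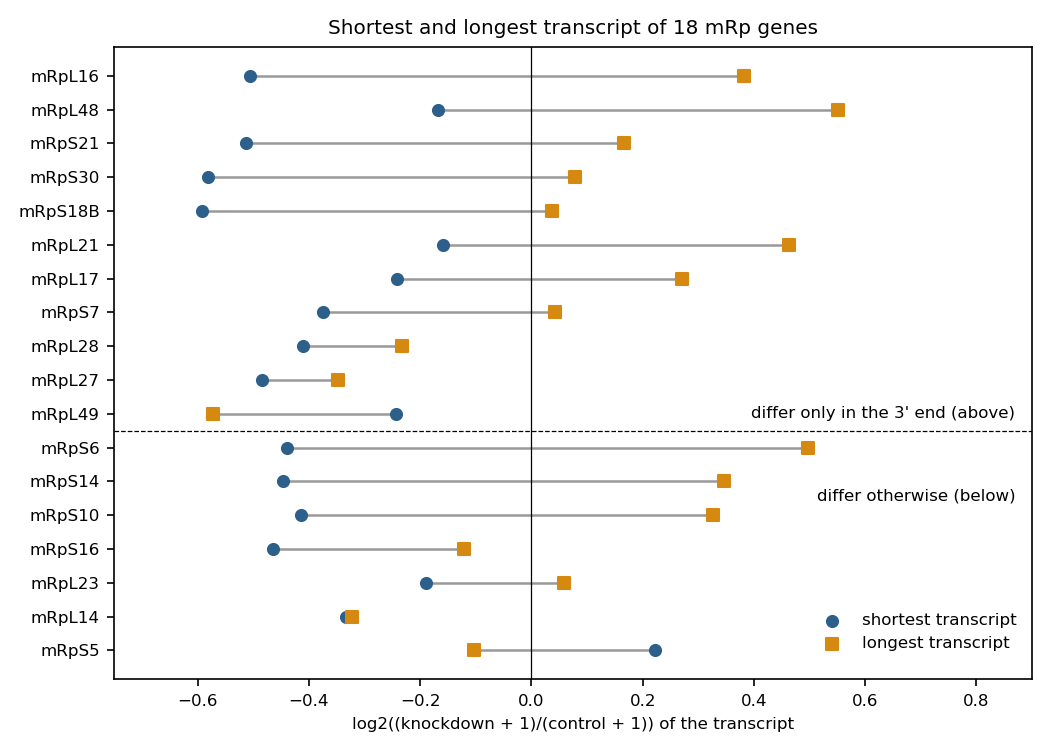
Log2 difference between the libraries of the shortest (circle) and longest (square) transcript at a mean of 1 FPKM or more, for 18 mRp genes with both. Above the dashed line are the 11 genes whose forms differ only in the 3′ end; in 10 of these, and in 16 of all 18, the longest transcript lies to the right of the shortest.

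The genes were spread over the genome and most lay back to back with a neighbour. There were 21 on 3R, 17 on 3L, 12 each on 2L and 2R and 11 on X, with median log2 differences from -0.35 on 2L to -0.23 on 3L. In the Release 6 annotation 51 of the 73 (69.9%) had a protein-coding gene on the other strand that starts within 500 bp upstream, compared with 30.7% of tested coding genes. The median of the largest number of exons per transcript was 2 in members and 4 in tested coding genes.

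Some of these neighbours are well known. mRpL55 starts 95 bp from ATPsynD, a subunit of ATP synthase at 681 FPKM in the library labelled knockdown against 811 FPKM in the control (-0.25). mRpL35 starts 192 bp from Mitofilin, which shapes the inner mitochondrial membrane, at 55.8 and 62.4 FPKM (-0.16), and mRpS7 starts 400 bp from the mitotic kinase gene Cdk1, at 172 and 232 FPKM (-0.43). The 50 neighbours that were tested had a median of -0.20, with 35 below 0. The members beside them had a median of -0.32. In addition, 42 members (57.5%) overlap a coding gene on the opposite strand, compared with 37.2% of tested coding genes. It is not known whether the authors counted by strand, and an effect of overlap on the values was not tested. Members with such an overlap had a median of -0.30 and those without one -0.27.

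The other genes of mitochondrial gene expression differed by group. Mitochondrial ribosomal proteins under other names were like the set: tko, the S12 protein whose mutants are paralysed by mechanical shock, stood at 183 FPKM in the library labelled knockdown against 215 FPKM in the control (-0.23), and bonsai, the S15 protein, at 84.9 and 101 FPKM (-0.24). All 9 matched translation factors lay below 0, the median was -0.25, and 4 met the rule of 0.8. The elongation factor gene EfTuM was at 152 and 181 FPKM (-0.25), the release factor gene CG5705, now mRF1, at 14.7 and 22.7 FPKM (-0.60) and the initiation factor gene CG12413, now mIF2, at 9.92 and 11.0 FPKM (-0.14).

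Mitochondrial tRNA synthetases, which charge the tRNAs this ribosome uses, were closer between the libraries and much lower in level. Of 14 matched genes 12 lay below 0 with a median of -0.092, 1 met the rule of 0.8, and median levels were 11.1 and 12.1 FPKM. CG31739, now AspRS-m, was at 31.0 and 33.1 FPKM, CG6796, now AsnRS-m, at 8.59 and 11.4 FPKM (-0.37) and CG5660, now ValRS-m, at 4.18 and 3.74 FPKM (0.13). Of 13 genes of mitochondrial transcription and RNA processing 10 lay below 0 and 3 met the rule, the median being -0.20. The transcription factor gene mtTFB2 was at 17.9 and 26.3 FPKM (-0.53), scu, of the mitochondrial RNase P, at 186 and 215 FPKM (-0.21) and mTerf5 at 19.97 and 19.7 FPKM (0.018). The synthetase genes were longer, with a median longest transcript of 2514.5 nt.

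RNAs of the mitochondrial genome itself were mixed. Of 13 tested RNAs 9 lay below 0 with a median of -0.20, and 4 met the rule of 0.8. mt:lrRNA, the RNA of the large subunit, stood at 4992 FPKM in the library labelled knockdown against 6256 FPKM in the control (-0.33), and mt:srRNA, that of the small subunit, was listed at 0 in both. mt:CoII was at 7123 and 8131 FPKM (-0.19), mt:ND4L at 33.9 and 50.9 FPKM (-0.57) and mt:ND6 at 5.68 and 2.78 FPKM (0.82). RNA was selected for poly(A), and the part of that step in these levels was not tested.

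Finally, the respiratory chain and the cytosolic ribosome were set beside the members. Among 67 tested nuclear genes of the respiratory chain and ATP synthase, 61 lay below 0, 31 met the rule of 0.8 and the median was -0.30. CG10320, now ND-B12, was at 503 and 717 FPKM (-0.51), CG1746, now ATPsynC, at 2909 and 2869 FPKM (0.020), and CG34172 at 4.79 FPKM and listed at 0. Among 91 tested cytosolic ribosomal protein genes, 90 lay below 0, 72 met the rule of 0.8 and the median was -0.42. RpL41, the highest of them, was at 43092 and 63983 FPKM (-0.57), RpS5b at 545 and 941 FPKM (-0.79) and RpS28-like at 1.30 and 0.951 FPKM (0.24). The summed level of the respiratory list was 0.834 and that of the cytosolic list 0.737 of the control library's, beside 0.815 for the 73 mitochondrial ribosomal protein genes. After rescaling to an equal sum, 0.28 is added to each of these log2 ratios alike.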

How the data were processed

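Groups were taken from the sample titles. The deposited values are FPKM per annotated transcript, 1 value per library, per the file headers. TopHat and Cuffdiff made them, per the submitters' processing notes. Settings, genome build, annotation release and strand handling were not given in the sources used here. Libraries came from a directional kit with fragments of 250 to 400 bp, per the labels' protocols. Coordinates are those of the files, 1-based, with the scaffold names of Drosophila Release 5; structures and neighbours come from the Ensembl Release 6 annotation. For 41 members the files give a bundle of genes, whose span is not printed.

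Transcripts were summed per FlyBase gene (365 transcripts without an identifier were left out), and genes that reached 1 FPKM in either library were kept. All 73 members passed. Differences use a pseudocount of 1 FPKM, which understates those of low genes. Fragments were estimated from the pile-up of the lowest values of FPKM times length in single-transcript genes, by length class from 300 to 3000 nt. Each gene's summed FPKM was taken with the length of its most abundant transcript, which undercounts genes with longer minor forms. Thus mRpS5, taken at 479 nt, had 682 estimated fragments in the control library, the fewest of any member. The estimates gave exact binomial 95% intervals of ratios. The steps were tested on simulated data (Python 3.11.15, pandas 2.3.3, scipy 1.17.1, statsmodels 0.14.6). The members and lists were chosen with earlier results of these data known. mRpS24 and mRpL47 were placed with the bacterial families after their values were seen, and by number alone the rule of 0.8 was met by 25 of 42 and 9 of 31. List symbols were matched by file symbol, current name or locus tag, and 5 found no match.

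Named were the 8 members at each end of the differences, the 8 highest and 5 lowest by level, members of structural roles, those whose second transcript holds at least 20% of the gene, and per list the highest gene and both extremes. The neighbours ATPsynD, Mitofilin and Cdk1, mt:lrRNA, mRpS24 and mRpS33 beside the head list, and other members in the transcript section were chosen after their values were seen. Alternatives concern the pseudocount, the filter, the scale, the length trend and the use of 1 transcript per gene.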

Additional observations from a re-analysis of the deposited data

How the results depend on the processing

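Counts stayed within 1.5 times the main ones and the medians of all, mRpL and mRpS genes between -0.36 and -0.26 with a pseudocount of 0.1 or 5 FPKM, a filter at 5 FPKM, no filter, and the most abundant transcript alone. The scale and the length trend moved them; the cause was not tested. Rescaled to an equal FPKM sum, 36 members lay below 0, 0 met the rule of 0.8, the median was 0.0033 for all, 0.014 for mRpL and -0.049 for mRpS genes, and the log2 ratio of the sums was -0.015, from -0.30. Rescaled to a median ratio of 1 among genes that reached 5 FPKM in each library, 69 lay below 0 and 12 met that rule, and the medians were -0.20 (all) and -0.19 (mRpL), the sums' ratio -0.22. With the length trend removed 61 lay below 0 and 5 met it, with medians of -0.15 (all) and -0.13 (mRpL). Relative to all tested genes the members' median ran from -0.28 to -0.15 over the settings. Among the 51 named members, 25 changed sign under the equal sum, 11 without the length trend and 3 at a median ratio of 1. The longer 3′ form lay above the shorter in 7 of 8 members with both forms at 5 FPKM or more, an alternative chosen after seeing the data, as were pseudocounts of 0.1 and 5 for this count, which gave 10 of 11. Depth limits single genes to a counting error of at most 0.071 on the log2 scale. No paired analysis was possible because each group is 1 library.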
